A study of Mus musculus with 6 samples.

Results

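The 10 genes studied here carry iron into, within and out of cells, and they were compared between the adipocyte fractions of mice with and without an adipocyte deletion of the transcription factor PU.1. They are Trf, Tfrc, Slc11a1, Slc11a2, Steap3 and Steap4 for uptake, Fth1 and Ftl1 for storage, Slc40a1 for export and Hmox1 for release from heme. They were chosen by symbol among the 35122 genes of the deposited table, and all 10 were among the 13925 genes that had enough counts to be tested.

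RNA was taken from adipocytes that floated after epididymal fat of male C57BL/6 mice had been digested with collagenase, with 3 mice and 3 libraries per group. The control mice were PU.1 fl/fl. The aPU.1KO mice were AdipoqCre PU.1 fl/fl, so that both groups carried the floxed Spi1 alleles, and Spi1 is the gene of PU.1. Cre was driven by the adiponectin promoter, which is active in fat cells and not in the macrophages of fat tissue. Per the labels every mouse was 10 to 11 months old, and the mice ate a standard chow diet. The text of the study describes the mice of this experiment as older than the labels do, and the labels are followed here. Mice are numbered 1 to 3 within a group, and the numbers do not pair mice across groups.

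Iron travels in blood bound to transferrin, the product of Trf. Transferrin docks at its receptor, is taken into endosomes and gives up its iron, which STEAP reductases reduce and divalent metal transporters move into the cytosol. Surplus iron is held inside a shell of ferritin heavy and light chains or leaves the cell through ferroportin. Adipocytes store and use iron, and the macrophages of fat tissue recycle it from heme and from the cells they engulf.

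Cells set several of these genes by iron-responsive elements, short RNA hairpins with the loop CAGTGN that the iron regulatory proteins grip when iron is scarce. In a 5′ UTR the hairpin blocks translation, and in a 3′ UTR it protects the RNA from decay. The pattern searched in GENCODE M21 transcripts (GRCm38) was a C, 5 bases, the loop CAGTGN with a last base other than G, and 5 bases that pair with the first 5, G-T pairs allowed. It was found in 4 of the 10 genes. Fth1, Ftl1 and Slc40a1 held it in the 5′ UTR, as 0.105% of 21901 coding genes did, and Tfrc held 4 copies in the 3′ UTR, where 0.457% of coding genes had at least 1. Elements with a bulge in the upper stem, such as the one known from the 3′ UTR of Slc11a2, lie outside this pattern. The sites are shown as the hairpins of this strict form among the members, with 30 bases each, 5′ to 3′, and the loop in capitals.
Fth1, chr19:9982732-9982761, plus strand: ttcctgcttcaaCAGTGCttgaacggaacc
Ftl1, chr7:45459778-45459807, minus strand: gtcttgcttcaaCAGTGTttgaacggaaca
Slc40a1, chr1:45925464-45925493, minus strand: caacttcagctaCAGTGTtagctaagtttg
Tfrc, chr16:32631219-32631248, plus strand: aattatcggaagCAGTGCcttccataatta
Tfrc, chr16:32631598-32631627, plus strand: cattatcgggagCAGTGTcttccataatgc
Tfrc, chr16:32631663-32631692, plus strand: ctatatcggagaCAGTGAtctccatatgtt
Tfrc, chr16:32631710-32631739, plus strand: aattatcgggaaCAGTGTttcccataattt
The other 6 genes had no match to these letters in their annotated coding transcripts. Counts of RNA show transcript amount, not translation, so a block at a 5′ element would not be seen in them.

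The aPU.1KO libraries held 20550252 to 24310144 counts and the control libraries 22770714 to 69283842, and control library 1 was the deepest. Spi1 had 24.3, 6.35 and 26.7 CPM (counts scaled to a common library total with TMM factors) in control mice 1, 2 and 3 and 3.20, 1.22 and 4.17 CPM in aPU.1KO mice 1, 2 and 3, without overlap (log2 fold change -2.75, standard error 0.64, edgeR adjusted p = 0.0788). The counts include exons that Cre does not remove. Macrophages also express Spi1, and the paper names them as a possible contaminant of the adipocyte fraction. Their markers, given below, were lower alongside, and their part in the Spi1 values was not tested. The adipocyte markers Adipoq, Plin1, Lep, Cidec, Retn, Cfd and Pnpla2 were abundant in every library, as the label of an adipocyte fraction implies. Their sum was 15188 to 16925 CPM in control mice and 17972 to 22261 CPM in aPU.1KO mice, without overlap. Of the 7, 5 were higher in aPU.1KO at an unadjusted edgeR p under 0.05, as were 11.9% of all genes tested, and 1, Lep, was lower, as were 13.7%, with a median log2 fold change of 0.43. The 14 macrophage markers summed to 1833, 500.0 and 1770 CPM in control mice 1, 2 and 3 and to 348.0, 221.4 and 324.2 CPM in aPU.1KO mice 1, 2 and 3, and control mouse 2 stood apart from the other controls. In such bulk RNA, fewer cells of a type and less RNA per cell cannot be told apart.

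The question was which of the iron genes differed between the adipocyte fractions of aPU.1KO and control mice. By the quasi-likelihood test of edgeR, adjusted after Benjamini and Hochberg, 0 of the 10 had an adjusted p under 0.05, against 0.237% of all genes tested. At an unadjusted p under 0.05 there were 5 of 10, beside 25.7% of all genes tested. Of these, Slc11a1, Slc40a1, Hmox1 and Steap3 were lower in the aPU.1KO adipocyte fraction (background 13.7%), and Trf was higher (background 11.9%). DESeq2, the tool the study used, gave an adjusted p under 0.05 for 4 of the 10 (Slc11a1, Slc40a1, Steap3 and Trf), beside 11.0% of the genes for which it gave one. The median log2 fold change of the 10 was -0.16, beside 0.01 over all genes tested. For 5 of the 10, all mice of a group lay on 1 side of all mice of the other, as was so for 32.1% of all genes tested: Slc11a1, Slc40a1 and Steap3 were lower in every aPU.1KO mouse (background 15.5%), and Trf and Slc11a2 were higher (background 16.7%).

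**Figure D1:**
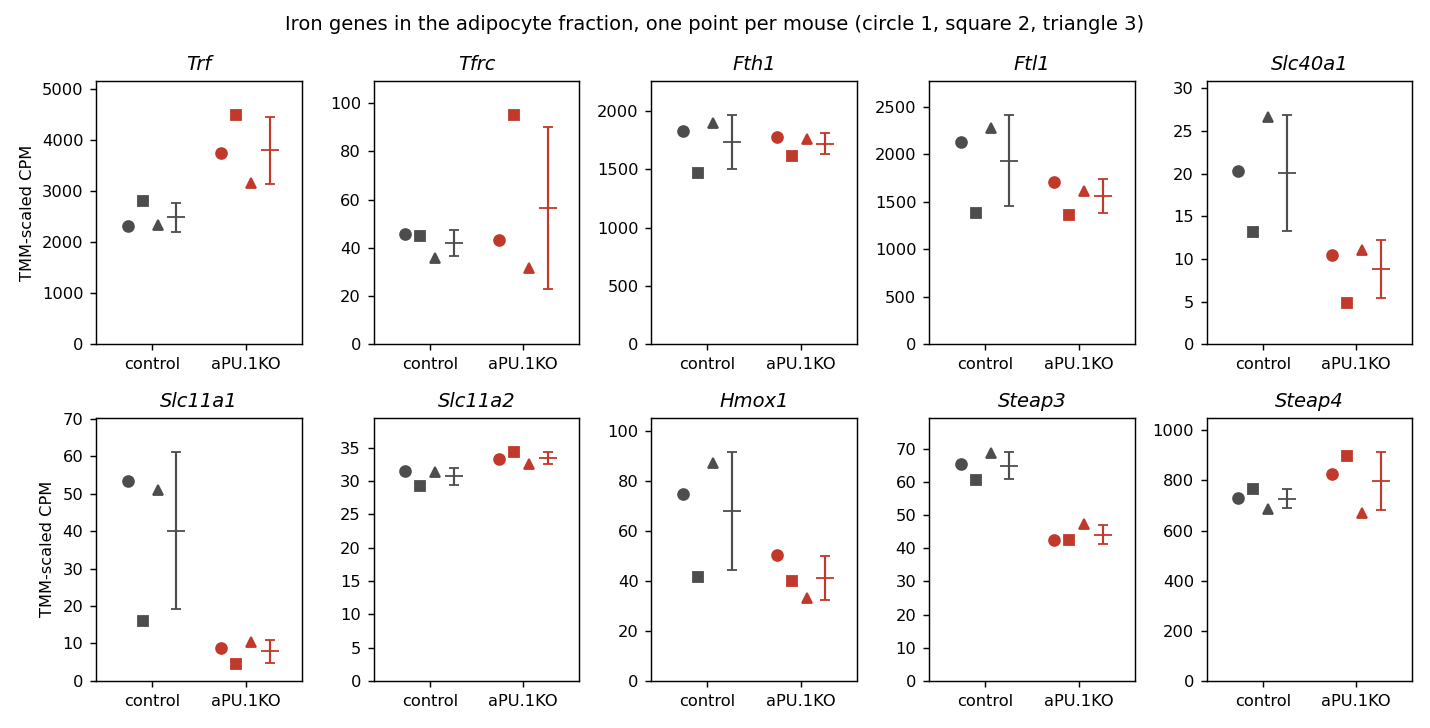
TMM-scaled CPM (linear axes from 0) of the 10 iron genes, with 1 point per mouse (circle, square and triangle for mice 1, 2 and 3; grey for control, red for aPU.1KO) and the mean with its SD beside them. Steap3 separates the groups with little spread, whereas in Slc11a1 control mouse 2, at 15.9 CPM, lies far below the other control mice.

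Transferrin, the iron carrier of blood plasma, was the most counted of the uptake genes. Trf (ENSMUSG00000032554, chr9:103204001-103230444) stood at 2311, 2809 and 2333 CPM in control mice 1, 2 and 3 and at 3746, 4479 and 3156 CPM in aPU.1KO mice 1, 2 and 3. Every aPU.1KO mouse lay above every control mouse, by 1.53-fold on the fitted scale (log2 fold change 0.61, standard error 0.17, edgeR adjusted p = 0.102, DESeq2 adjusted p = 0.00646). With single mice left out the log2 fold change stayed between 0.47 and 0.73. The adipocyte markers moved with Trf, and 6 of the 7 were higher in each aPU.1KO mouse than in any control, with log2 fold changes of 0.43 for Adipoq, 0.43 for Pnpla2, 0.28 for Plin1, 0.30 for Cidec, 1.22 for Retn and 1.71 for Cfd. The remaining one, Lep, the most counted of them in control mice, went the other way at -0.77. Their part in the Trf values was not tested. The liver is the main source of plasma transferrin. The 10 hepatocyte markers ran the other way, with a summed level of 45.1 to 68.5 CPM in the control mice and 19.4 to 26.0 CPM in the aPU.1KO mice. The highest, Alb (serum albumin), averaged 34.7 and 19.0 CPM, and Fgb and Tat were at 0 in every aPU.1KO mouse. Of the 10, 4 had at most 3 counts in each aPU.1KO library, and those of them that were tested passed the filter on low counts through the control mice alone, so that no count of calls is given for this list. The gene overlaps Gm20425 on the same strand, which had 72 to 445 counts, and with both summed, which was tried only once the values were known, the log2 fold change was still 0.61.

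The transferrin receptor, Tfrc (ENSMUSG00000022797, chr16:32608920-32632794), is the door through which loaded transferrin enters. It was counted at 45.7, 44.8 and 35.9 CPM in control mice and at 43.1, 94.9 and 31.5 CPM in aPU.1KO mice. The groups overlapped, and aPU.1KO mouse 2 alone stood above all other mice. The log2 fold change was 0.42 (standard error 0.38, edgeR adjusted p = 0.526), and without aPU.1KO mouse 2 it was -0.18. The 6 erythroid markers, of which Hbb-bs, Hba-a2 and Hba-a1 were the highest, also summed highest in that mouse, at 1145 CPM against 352 to 883 CPM in the other mice. The next highest sum, 883 CPM, was in aPU.1KO mouse 3, where Tfrc was the lowest of the 6 mice. Their part in the Tfrc value was not tested.

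The STEAP proteins reduce ferric iron so that it can cross a membrane. Steap3 (ENSMUSG00000026389, chr1:120190757-120272705), the endosomal ferrireductase of the transferrin cycle, was counted at 65.4, 60.5 and 68.6 CPM in the control mice. In the aPU.1KO mice it was at 42.4, 42.5 and 47.4 CPM. No mouse crossed the gap between the groups, and the spread within each was small, with SDs of 4.08 and 2.87 CPM. The control level was 1.47-fold that of aPU.1KO (log2 fold change -0.56, standard error 0.08, unadjusted p = 0.000321, adjusted p = 0.0718 by edgeR, and adjusted p = 3.45e-05 by DESeq2). This was the lowest unadjusted edgeR p of the 10 genes. With any mouse left out the log2 fold change stayed between -0.61 and -0.52, and its unadjusted edgeR p was at most 0.00229, without control mouse 1. Steap4 (ENSMUSG00000012428, chr5:7960457-7982213), a metalloreductase known from fat tissue, was at 730.7, 763.8 and 687.6 CPM in control and 825.5, 895.9 and 669.3 CPM in aPU.1KO mice. The groups overlapped, since aPU.1KO mouse 3 was the lowest of the 6 mice, and the log2 fold change was 0.13 (standard error 0.13, edgeR adjusted p = 0.559), with 0.04 without aPU.1KO mouse 2 and 0.25 without aPU.1KO mouse 3. The ratio of Steap3 to Steap4 within a library, per kilobase of exon, does not depend on how libraries are scaled. It was 0.0494, 0.0438 and 0.0551 in control mice and 0.0283, 0.0262 and 0.0391 in aPU.1KO mice, without overlap.

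The NRAMP family moves divalent metals with protons. Slc11a1 (ENSMUSG00000026177, chr1:74375195-74386062) encodes NRAMP1, which draws iron out of the phagosomes of macrophages, and its fold change was the largest of the 10. It was counted at 53.5, 15.9 and 51.0 CPM in control mice and at 8.84, 4.52 and 10.5 CPM in aPU.1KO mice. All aPU.1KO mice were below all control mice, although control mouse 2 came nearer to them than to the other controls. The control level was 5.06-fold that of aPU.1KO (log2 fold change -2.34, standard error 0.51, adjusted p = 0.0783 by edgeR and 3.89e-05 by DESeq2), and without control mouse 2 the log2 fold change was -2.73 with an edgeR adjusted p of 0.0086. In that run 1193 of all genes tested were called, against 33 with all mice. With any other mouse left out, the edgeR adjusted p of Slc11a1 was 0.0920 to 0.313. Slc11a2 (ENSMUSG00000023030, chr15:100387898-100425072), which encodes the widely expressed transporter DMT1, had 31.5, 29.3 and 31.3 CPM in control and 33.3, 34.4 and 32.6 CPM in aPU.1KO mice. The aPU.1KO mice were all above the control mice, but by little, at 0.12 on the log2 scale (standard error 0.07, edgeR adjusted p = 0.347), or 0.080 without control mouse 2. Slc11a2 shares 402 exon bases with Gm5475 on the opposite strand, which had 0 counts in every library. Whether counting used strand is not given in the sources used here. The ratio of Slc11a1 to Slc11a2 per kilobase was 2.91, 0.931 and 2.79 in control mice and 0.456, 0.226 and 0.553 in aPU.1KO mice. In control mice 1 and 3 the phagosomal transporter was thus the more abundant transcript, and in control mouse 2 and all aPU.1KO mice the general transporter was.

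PU.1 binds purine-rich DNA with a GGAA core. Promoter windows of RefSeq (GRCm38.p6; 250 bases before and 50 after a start) were given for 6 of the 10 genes, in 11 windows, and none for Trf, Slc11a2, Slc40a1 and Hmox1. On either strand, GAGGAAGT was in 0 of the 11 windows (3.2% of 32851 windows held it), and GAGGAA, which lies within it, was in 3 (28.3% of windows), 1 of Slc11a1 and 2 of the 4 of Steap3. TGACNNNGC, a core of the antioxidant response element, was in 0 of 11 (12.4% of windows). The 250 bases before the start of Slc11a1 are shown as the promoter of the member with the largest fold change, with GAGGAA in capitals, its first base at position -152 from the start.
Slc11a1, chr1:74374953-74375202, plus strand: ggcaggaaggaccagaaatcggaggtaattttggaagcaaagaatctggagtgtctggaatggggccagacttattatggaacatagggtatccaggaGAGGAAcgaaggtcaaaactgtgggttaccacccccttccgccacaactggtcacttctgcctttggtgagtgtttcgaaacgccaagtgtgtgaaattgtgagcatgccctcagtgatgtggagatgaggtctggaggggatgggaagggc
A match is no evidence of binding, and binding was not measured here.

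Ferritin stores iron in a shell of heavy chains, which oxidize it, and light chains, which help it to mineralize. Fth1 (ENSMUSG00000024661, chr19:9980598-9985098) was at 1826, 1469 and 1901 CPM in control and 1780, 1615 and 1761 CPM in aPU.1KO mice. The aPU.1KO values lay inside the control range, and the log2 fold change was -0.01 (standard error 0.13, edgeR adjusted p = 0.966). Ftl1 (ENSMUSG00000050708, chr7:45457944-45459884) was at 2129, 1381 and 2274 CPM in control and 1703, 1356 and 1616 CPM in aPU.1KO mice. Control mouse 2 was again low and lay within the range of the aPU.1KO mice, so that the groups overlapped (log2 fold change -0.31, standard error 0.21, edgeR adjusted p = 0.392). Without control mouse 2 the log2 fold change of Ftl1 was -0.51 with an unadjusted edgeR p of 0.0135, and without control mouse 3 it was -0.18. The ratio of Fth1 to Ftl1 per kilobase was 0.331, 0.411 and 0.323 in control and 0.404, 0.460 and 0.421 in aPU.1KO mice, and it overlapped between groups through control mouse 2. Ftl1 has near-identical copies, of which Ftl1-ps1 shares 930 bases at 97.3% identity. That copy had 20 to 207 counts in a library, and with all such copies summed the log2 fold change of Ftl1 remained at -0.31.

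Ferroportin, the product of Slc40a1 (ENSMUSG00000025993, chr1:45908068-45926523), carries iron out of the cell and is abundant in iron-recycling macrophages. It was counted at 20.3, 13.2 and 26.7 CPM in control mice and at 10.5, 4.88 and 11.0 CPM in aPU.1KO mice. The groups did not overlap, with the lowest value in aPU.1KO mouse 2. The control level was 2.29-fold that of aPU.1KO (log2 fold change -1.20, standard error 0.37, adjusted p = 0.113 by edgeR and 0.0159 by DESeq2). The ratio of Slc40a1 to Tfrc, export over import, was 0.305, 0.202 and 0.510 per kilobase in control and 0.167, 0.0353 and 0.240 in aPU.1KO mice, with overlap between aPU.1KO mouse 3 and control mouse 2. Its size depends on the length used, as the control mean was 0.339 with merged exons and 0.615 with the longest transcript.

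Heme oxygenase 1, the product of Hmox1 (ENSMUSG00000005413, chr8:75093621-75100589), opens the heme ring and frees its iron, and it is induced by heme and by oxidative stress. It was at 74.9, 41.6 and 87.5 CPM in control and 50.6, 40.0 and 33.3 CPM in aPU.1KO mice. Control mouse 2 was below aPU.1KO mouse 1, and the groups overlapped. The control level was 1.65-fold that of aPU.1KO (log2 fold change -0.72, standard error 0.28, unadjusted p = 0.0391, adjusted p = 0.172 by edgeR and 0.0803 by DESeq2). The unadjusted p was no longer under 0.05 when any of 4 of the 6 mice was left out. By edgeR it was 0.0890 without control mouse 1, 0.127 without control mouse 3, 0.0940 without aPU.1KO mouse 2 and 0.123 without aPU.1KO mouse 3. With all mice, limma-voom gave 0.0620 as the unadjusted p. Without control mouse 2 the log2 fold change was -0.99 and the edgeR adjusted p 0.0307. Hmox2, which encodes the constitutive enzyme, differed by -0.10 on the log2 scale (standard error 0.10, edgeR adjusted p = 0.551).

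**Figure D2:**
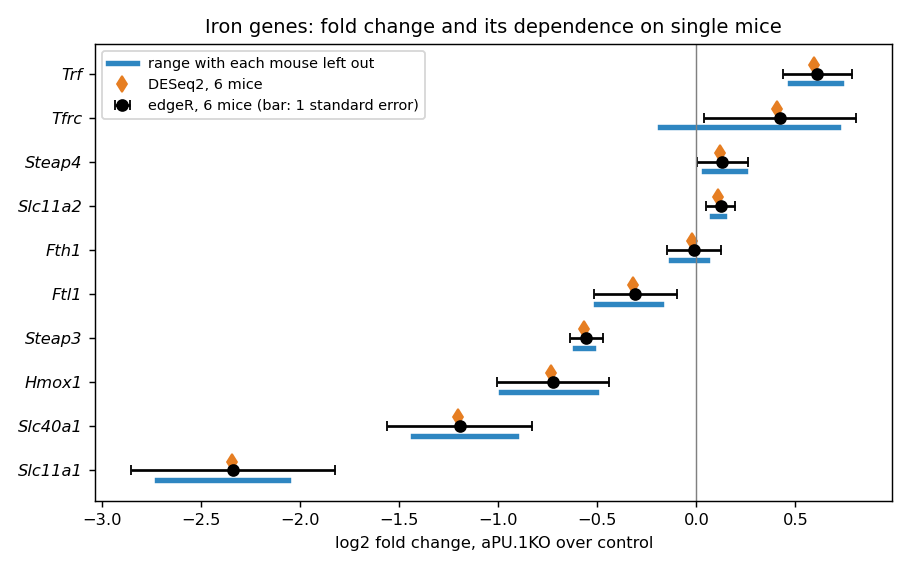
Log2 fold change of each iron gene, aPU.1KO over control, by edgeR (black, with 1 standard error) and DESeq2 (orange), and the range of edgeR values with each mouse left out in turn (blue). The values run from -2.34 for Slc11a1 to 0.61 for Trf, and the blue range crosses 0 for Tfrc and Fth1.

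Markers of macrophages moved with several of these genes. Of the 14 markers, 12 were lower in aPU.1KO at an unadjusted edgeR p under 0.05 (background 13.7%), 1 of them (Mrc1) at an adjusted p under 0.05 (background 0.237%), and none was higher. None was at the floor of 3 counts in a whole group, and the highest were Lyz2, Mpeg1 and Csf1r. Their sum spanned 8.28-fold over the 6 libraries, and Slc11a1 spanned 11.8-fold. The ratio of Slc11a1 to that sum was 0.0292, 0.0318 and 0.0288 in control mice and 0.0254, 0.0204 and 0.0324 in aPU.1KO mice, so that it spanned 1.59-fold and the groups overlapped. The ratio for Slc40a1 also overlapped, at 0.0111, 0.0264 and 0.0151 in control and 0.0301, 0.0220 and 0.0339 in aPU.1KO mice. For each of the other 8 genes the ratio in all aPU.1KO mice exceeded that in all control mice, whether or not the gene itself differed. It was 0.122, 0.192 and 0.146 against 0.0357, 0.121 and 0.0388 for Steap3, 0.145, 0.181 and 0.103 against 0.0409, 0.0833 and 0.0494 for Hmox1, and 5.11, 7.29 and 5.43 against 0.996, 2.94 and 1.07 for Fth1, whose own level differed by -0.01 on the log2 scale. These ratios were computed after the values were seen, and the part of macrophages in the group differences was not tested. The markers without such a call were Marco, a scavenger receptor, and Cd163. Marco had means of 2.69 CPM (control) and 2.56 CPM (aPU.1KO), with a log2 fold change of -0.08 and an edgeR adjusted p of 0.939. Cd163, the macrophage receptor that takes up hemoglobin bound to haptoglobin, had means of 12.7 CPM (control) and 15.4 CPM (aPU.1KO) (log2 fold change 0.29, standard error 0.63, edgeR adjusted p = 0.804).

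**Figure D3:**
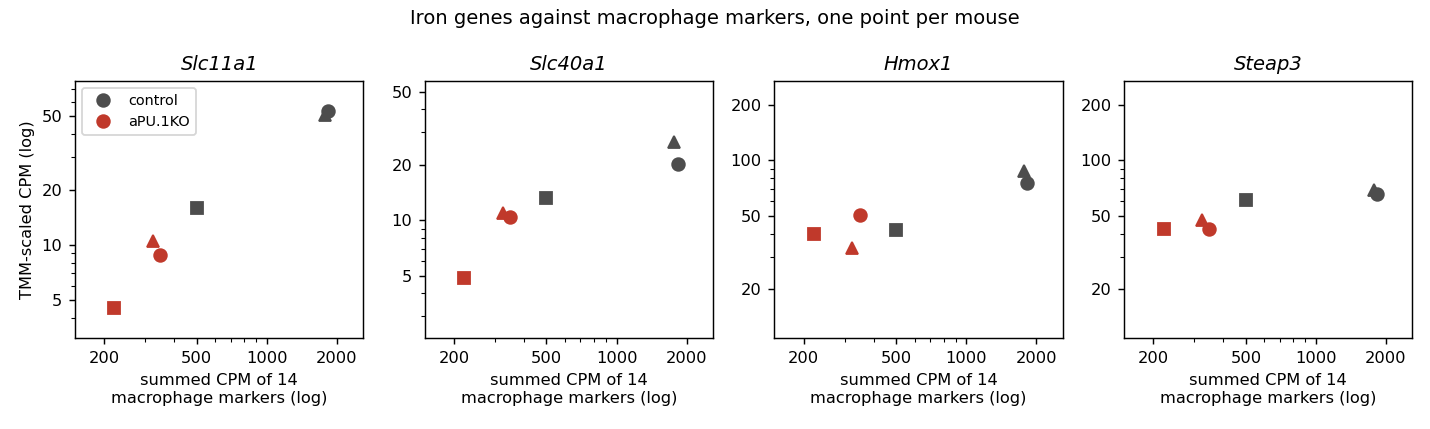
Level of 4 iron genes (TMM-scaled CPM) against the summed level of 14 macrophage markers in the same library, both on log axes, with 1 point per mouse (grey for control, red for aPU.1KO; circle, square and triangle for mice 1, 2 and 3). Control mouse 2 lies between the aPU.1KO mice and the other control mice in both Slc11a1 and the markers, while Steap3 is nearly as high in control mouse 2, at 60.5 CPM, as in the other control mice.

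Compared per kilobase of merged exon, the levels of the 10 genes differed widely. In control mice Ftl1 led at 1439 ± 358 CPM per kilobase (SD, n = 3), followed by Trf at 748 ± 84.8, Fth1 at 499 ± 66.5 and Steap4 at 231 ± 12.1. Hmox1 followed at 38.9 ± 13.5, Steap3 at 11.3 ± 0.714, Slc11a1 at 10.8 ± 5.67, Tfrc at 6.81 ± 0.874, Slc11a2 at 4.83 ± 0.192 and Slc40a1 at 2.23 ± 0.751. Among neighbours in this order, the ranges of the 3 mice overlapped only for Steap3 with Slc11a1 and for Slc11a1 with Tfrc. In aPU.1KO mice Ftl1, at 1163 ± 135 CPM per kilobase, and Trf, at 1143 ± 200, overlapped. There Slc11a1 stood the ninth, at 2.15 ± 0.835, and Tfrc the sixth, at 9.13 ± 5.46. The place of Tfrc rested on mouse 2, at 15.3, since in mice 1 and 3 it was below Steap3, at 6.97 and 5.08 against 7.42 and 8.30. With the length of the longest transcript in place of merged exons, Slc11a1 and Steap3 changed places in the control order and the other places stayed.

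Likeness of pattern was measured as the root mean square difference of log2 CPM, centred on each gene's mean, over the 6 libraries and against 11764 genes. The profile of Slc11a1 was nearest to those of Qpct (0.0424) and Cd53 (0.0923), the latter a leukocyte surface protein. Trf was nearest to Gcat (0.0290) and Ndufb8 (0.0401), a subunit of complex I of the respiratory chain. The nearest profiles were Wrap73 for Steap3, Tpd52 and Micall2 for Slc40a1, Dennd4b and Sox4 for Hmox1, and Frmd8 and Ctsb, the lysosomal protease cathepsin B, for Ftl1. They were Pygm and Plk3 for Tfrc, Psmd10 and Cib1 for Fth1, Eif3h and Vps26a for Slc11a2, and Zfp715 and Tardbp for Steap4.

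Beyond the 10 genes, 6 lists of iron and heme genes with 106 entries were examined, of which 97 were tested. By edgeR 0 of the 97 had an adjusted p under 0.05. At an unadjusted p under 0.05, 20 were higher (background 11.9%) and 6 were lower (background 13.7%), beside 25.7% of all genes tested in either direction. DESeq2 gave an adjusted p under 0.05 to 6 higher and 4 lower genes, no larger a share than the 11.0% among all genes. Hpx and Slc7a11, near the floor in the aPU.1KO mice as given below, were among both the 6 and the 4 lower genes. Most of the higher genes came from the list of mitochondrial iron and iron-sulfur cluster assembly, where 12 of 28 were higher (background 11.9%) and 1 was lower (background 13.7%) at an unadjusted p under 0.05. Its median log2 fold change was 0.22, beside 0.01 over all genes tested, and in 15 of them all aPU.1KO mice lay above all control mice (background 16.7%). The adipocyte markers, with a median log2 fold change of 0.43 and a sum that was higher in all aPU.1KO mice, moved with this list, and their part in it was not tested. Nfu1 and Bola3, which hand finished clusters to their target enzymes, had log2 fold changes of 0.35 (standard error 0.08) and 0.42 (standard error 0.10), and their adjusted p by edgeR was 0.0783 and 0.0792. Nfu1 was at 34.6, 35.2 and 36.1 CPM in control and 47.5, 45.1 and 42.3 CPM in aPU.1KO mice, and the groups were far apart for their spread. The lower gene was Nubp1, which serves cluster assembly in the cytosol (log2 fold change -0.49, standard error 0.12, edgeR adjusted p = 0.0856). DESeq2 gave an adjusted p of 0.0127 for Nfu1, 0.0165 for Bola3 and 0.0127 for Nubp1. Without control mouse 1 the number of genes in this list at an unadjusted p under 0.05 was 5.

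In the list of transferrin and ferritin relatives, uptake and ferrireduction, an unadjusted p under 0.05 was reached by 1 higher (background 11.9%) and 1 lower gene (background 13.7%) of 9 tested, a share near the background, with a median log2 fold change of -0.08. Tfr2, the second transferrin receptor and an iron sensor of the liver, was at 35.3, 21.1 and 46.8 CPM in control and 13.1, 3.21 and 16.3 CPM in aPU.1KO mice. The groups did not overlap (log2 fold change -1.67, standard error 0.56, edgeR adjusted p = 0.131), and the unadjusted edgeR p was 0.0668 without control mouse 3. The hepatocyte markers were lower in aPU.1KO mice too, as given for Trf, and their part in the Tfr2 values was not tested. Steap2 was higher in every aPU.1KO mouse, at 5.34, 17.1 and 4.74 CPM against 2.67, 3.85 and 1.51 CPM (log2 fold change 1.77, standard error 0.58, adjusted p = 0.126 by edgeR and 0.0194 by DESeq2). Without aPU.1KO mouse 2, which was far the highest, its log2 fold change was 0.91 with an unadjusted edgeR p of 0.0530, and without control mouse 3 that p was 0.0591. For Scara5, a ferritin receptor, the groups overlapped (log2 fold change -0.69, standard error 0.31, edgeR adjusted p = 0.222). It was -1.14 without aPU.1KO mouse 2, with an unadjusted edgeR p of 0.00096, and -0.46 without aPU.1KO mouse 1.

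Export, chaperone and ferritin turnover genes showed 0 of 8 at an unadjusted edgeR p under 0.05 in either direction (background 25.7%), with a median log2 fold change of 0.14. The ferroxidases that load exported iron onto transferrin, Heph and Cp, had log2 fold changes of 0.09 (standard error 0.07) and 0.25 (standard error 0.30), the former with 0.057 when control mouse 1 was left out and the latter with -0.16 when aPU.1KO mouse 2 was. Ncoa4, which delivers ferritin to the lysosome, was at 255.8, 255.1 and 254.8 CPM in control and 298.0, 315.5 and 265.1 CPM in aPU.1KO mice (log2 fold change 0.20, standard error 0.09, edgeR adjusted p = 0.218, unadjusted p = 0.0174 without aPU.1KO mouse 3). The iron chaperone Pcbp1 had 0.16 (standard error 0.11) and Bdh2 -0.81 (standard error 0.59). Without aPU.1KO mouse 2 they had 0.033 and -1.69, the latter with an unadjusted edgeR p of 0.0205, and Bdh2 had -0.40 without aPU.1KO mouse 3. Bdh2 was low, at 0.785, 0.482 and 0.872 CPM in control and 0.305, 0.768 and 0.142 CPM in aPU.1KO mice. It was not tested with at least 10 counts in every library, so that its p carries little weight.

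Iron sensing and the hepcidin axis had 1 of 12 tested genes at an unadjusted p under 0.05 (background 25.7%), which was higher, and a median log2 fold change of -0.0032. That gene was Ireb2, which encodes iron regulatory protein 2, at 82.7, 84.2 and 77.6 CPM in control and 94.4, 93.3 and 87.2 CPM in aPU.1KO mice (log2 fold change 0.17, standard error 0.07, edgeR adjusted p = 0.194). Its unadjusted edgeR p of 0.0493 was 0.0618 with RLE factors, 0.0697 with at least 10 counts in every library, 0.0979 with no filter, and DESeq2 gave 0.0788. It was 0.0664 to 0.167 when any 1 of 5 of the 6 mice was left out. Aco1, which encodes iron regulatory protein 1, had 0.27 (standard error 0.14), and Fbxl5, which marks iron regulatory protein 2 for destruction when iron is plentiful, had -0.06 (standard error 0.08). Hfe, Rnf217 and Hif1a had log2 fold changes of -0.23, 0.37 and -0.14, and their adjusted p by edgeR was 0.299, 0.242 and 0.253. Hamp, the gene of the liver hormone hepcidin, had 20, 5 and 7 counts in control mice 1, 2 and 3 and 2, 0 and 1 counts in aPU.1KO mice 1, 2 and 3, too few to be tested, and the hepatocyte markers were lower alongside. With a mouse left out, Aco1 ranged from 0.15 to 0.41, Hfe from -0.33 to -0.11, Rnf217 from 0.25 to 0.53 and Fbxl5 from -0.10 to -0.02.

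The heme list had 5 genes higher (background 11.9%) and 3 lower (background 13.7%) of 24 at an unadjusted edgeR p under 0.05, with a median log2 fold change of 0.02. Hpx, the heme carrier of plasma made in the liver, was at 2.24, 1.71 and 2.97 CPM in control and 0.356, 0 and 0.379 CPM in aPU.1KO mice (log2 fold change -3.24). It passed the filter on low counts through the control mice alone, so that its being called, as it is among the 3 lower genes, carries no weight. The hepatocyte markers given above were lower alongside, and their part in the Hpx values was not tested. Lrp1, the receptor that takes up heme bound to hemopexin, was at 1028, 825.8 and 915.8 CPM in control and 677.4, 513.1 and 667.9 CPM in aPU.1KO mice (log2 fold change -0.58, standard error 0.15, edgeR adjusted p = 0.0892). Pgrmc1, a heme-binding protein of the endoplasmic reticulum, was higher in every aPU.1KO mouse (log2 fold change 0.49, standard error 0.14, edgeR adjusted p = 0.0980). DESeq2 gave an adjusted p of 0.00458 for Lrp1 and 0.0251 for Pgrmc1.

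In the list of NRF2 and BACH1, the transcription factors that raise and repress Hmox1 and the ferritin genes, 1 gene of 16 was higher at an unadjusted p under 0.05 (background 11.9%) and 1 was lower (background 13.7%), both below the background share (median log2 fold change 0.05). Nfe2l2 and Bach1 themselves had log2 fold changes of 0.10 (standard error 0.13) and 0.11 (standard error 0.22), and each was negative without aPU.1KO mouse 2, at -0.06 and -0.20. Slc7a11, the cystine importer, had -1.50 (standard error 0.46, edgeR adjusted p = 0.113), and its unadjusted p was 0.0603 without control mouse 1. It was the lower gene of this list. Slc7a11 was low, at 1.997, 1.007 and 1.785 CPM in control and 0.457, 0.904 and 0.332 CPM in aPU.1KO mice. It was not tested with at least 10 counts in every library, so that its p carries little weight. Gpx4, the peroxidase that protects membranes from iron-driven lipid oxidation, was at 495.5, 518.9 and 540.9 CPM in control and 779.3, 663.3 and 585.3 CPM in aPU.1KO mice, without overlap (log2 fold change 0.38, standard error 0.12, edgeR adjusted p = 0.122). The unadjusted edgeR p of Gpx4 was 0.0786 when control mouse 1 was left out and 0.0635 when aPU.1KO mouse 1 was. Gclc had 0.44 (standard error 0.19, edgeR adjusted p = 0.195), with 0.23 to 0.63 when single mice were left out.

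**Figure D4:**
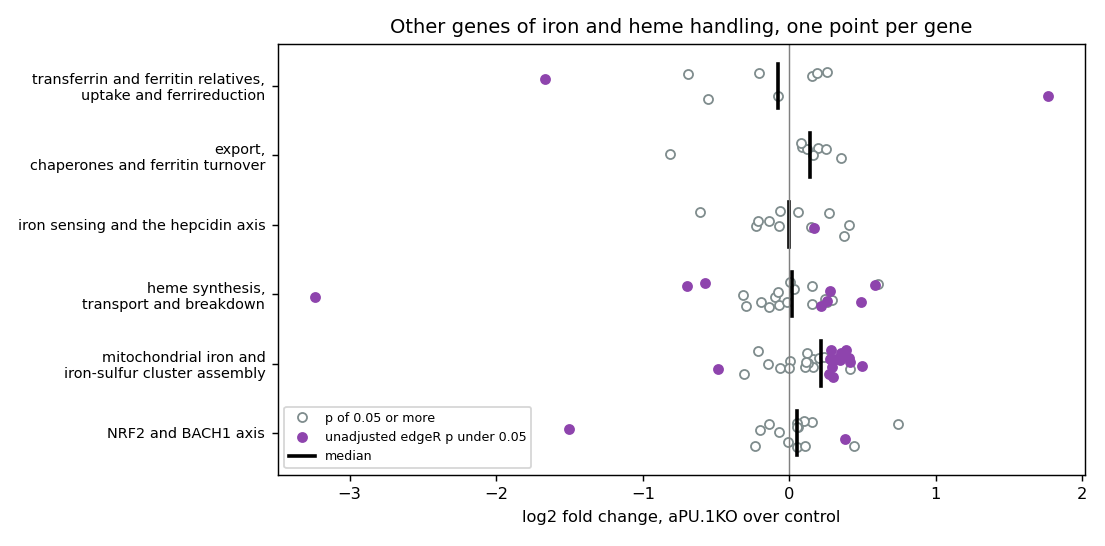
Log2 fold change, aPU.1KO over control, of the 97 tested genes of 6 iron and heme lists, with 1 point per gene, filled where the unadjusted edgeR p was under 0.05, and a black bar at each list's median. In the iron-sulfur cluster list 22 of 28 genes lie to the right of 0, as do 52.0% of all genes tested, with the median at 0.22. The point farthest to the left, at -3.24, is Hpx, which was nearly absent from the aPU.1KO libraries.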

How the data were processed

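Adipocyte RNA of 3 mice per group was sequenced, 1 library for each mouse. The authors quantified reads with Salmon and summed transcripts to genes, and the deposited estimated counts are whole numbers that were used as they are; the Salmon version and the annotation are not given in the sources used here, and the submitters' processing notes name GRCm38 and FastQC. Gene symbols and coordinates are from GENCODE M21, in which 35102 of 35122 identifiers were matched; the rest hold 0.00188% of the counts.

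Counts were filtered (filterByExpr), scaled with TMM factors and compared with edgeR 4.0.16 (glmQLFit and glmQLFTest, defaults) in R 4.3.3, with Benjamini-Hochberg adjustment over 13925 genes and a threshold of 0.05. CPM values are TMM-scaled, and log2 CPM used a prior count of 2. The standard error was taken from the coefficient and the F statistic. With 3 mice per group an exact permutation test cannot give a two-sided p under 0.1. No 2 libraries of a group were duplicates (their counts differed by a chi-square of at least 20.4 per degree of freedom). Alternatives were DESeq2 1.42.0, limma-voom (limma 3.58.1), other scaling factors, filters and dispersions, a thinned library, merged copies and leaving out each mouse. Near-identical copies were matched with BLAST 2.17.0 (95% identity over 100 bases).

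In simulated counts for this comparison over 13925 genes, edgeR called 91 of 100 genes changed by 2 on the log2 scale, 50 of 100 changed by 1, and 14 unchanged genes. The 10 genes, the 6 iron lists and the 9 marker lists were chosen with earlier results of these data known. Genes named beyond the 10 are, per iron list, the 3 tested with the lowest p, a fixed set of iron regulators, the 2 nearest profiles of each member (1 is not reported here) and up to 3 leading markers. Hmox2, Cd163, Marco, Mrc1, Fgb, Tat and the adipocyte markers beyond Adipoq, Lep and Cidec were chosen after their values were seen.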

Additional observations from a re-analysis of the deposited data

How the results depend on the processing

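Over all genes tested, the 33 calls at an adjusted p under 0.05 became 5 with at least 10 counts in every library, 146 with no filter on low counts, 1833 by DESeq2, 19 with control library 1 thinned to the median depth, and 0 to 1193 with a mouse left out (0 without control mouse 1, 1193 without control mouse 2). Of the 10 iron genes, 0 passed by edgeR, 1 with no filter on low counts (Steap3, -0.57), 4 by DESeq2 and 0 to 3 with a mouse left out (3 without control mouse 2). By DESeq2 the log2 fold changes were 0.60 for Trf, -1.20 for Slc40a1, -2.34 for Slc11a1, -0.57 for Steap3 and -2.75 for Spi1, each past the threshold. Leaving out mice gave -2.73 to -2.06 for Slc11a1, -0.99 to -0.51 for Hmox1, -0.61 to -0.52 for Steap3, -3.17 to -2.39 for Spi1, -0.18 to 0.71 for Tfrc (negative without aPU.1KO mouse 2) and -0.13 to 0.06 for Fth1, which was positive without control mouse 1 (0.014), control mouse 3 (0.056) or aPU.1KO mouse 2 (0.028) and by limma-voom (0.0075). The other 8 iron genes kept their direction in every alternative run. With a mouse left out, Cp ranged from -0.16 to 0.51, Bach1 from -0.20 to 0.28 and Nfe2l2 from -0.056 to 0.20, each negative only without aPU.1KO mouse 2.

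Genes at an unadjusted p under 0.05, with a mouse left out, numbered 0 to 4 in the transferrin and ferritin list, 0 to 2 in the export list, 0 to 3 in the sensing list, 3 to 10 in the heme list, 5 to 15 in the iron-sulfur list and 0 to 4 in the NRF2 and BACH1 list. The sensing list had 0 with RLE factors and 2 by DESeq2 or limma-voom, and the NRF2 and BACH1 list had 1 with at least 10 counts in every library. With the longest transcript as length, the mean control ratio of Fth1 to Ftl1 was 0.431 in place of 0.355, and that of Slc40a1 to Tfrc was 0.615 in place of 0.339. The causes were not tested, apart from the numbers of genes and mice that the alternatives themselves set. With all genes that share a stretch with it summed, most of them through a short repeat, Trf had 0.46. The study describes its control mice as littermates of the knockout mice. No paired analysis was possible because the labels do not say which mice were littermates and give no number that groups share.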

Other observations

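The other marker lists gave these summed levels. Neutrophil markers, led by S100a8, summed to 19.1 to 39.2 CPM in control and 11.4 to 18.3 CPM in aPU.1KO mice, with 2 of 6 at 3 counts or fewer in every mouse of both groups. T and B lymphocyte markers were at 4.03 to 6.03 and 2.19 to 4.55 CPM, and mesothelial markers at 4.48 to 15.7 and 6.02 to 7.96 CPM. Endothelial markers, led by Cdh5, Kdr and Pecam1, were at 429.1 to 638.9 and 262.9 to 559.8 CPM. Adipose progenitor markers, led by Dcn, were at 307.2 to 513.2 CPM in control and 158.3 to 265.1 CPM in aPU.1KO mice, without overlap, and 4 of the 6 were lower at an unadjusted edgeR p under 0.05 (background 13.7%).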
